A study of Mus musculus with 32 samples.

Results

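The 10 genes described here are 4 genes used as markers of fibro-adipogenic progenitors (Pdgfra, Ly6a, Cd34 and Dcn) and 6 genes of matricellular and adhesive matrix proteins (Tnc, Postn, Fn1, Spp1, Thbs4 and Sparc). They were taken by symbol from the 33397 genes of the expression table, each symbol matched 1 row, and all 10 were among the 22071 genes tested. RNA was sequenced from the gastrocnemius (GAS) muscle of the calf at 0, 1, 3, 5, 7, 14, 21 and 28 d post denervation, in 32 samples, 4 to a time point and 8 time points. The mice were male C57BL/6J of 6 to 8 weeks with no engineered allele, and the denervated muscles had lost a piece of the left sciatic nerve. The labels list the nerve transection at every time point, day 0 included, while the methods of the study describe sham mice that had the surgery without transection. The day 0 samples were therefore taken as the sham group, and no other group of undamaged muscle of a later day was analysed here. Nothing in the labels ties a column of the table to an individual animal, so the p-values measure the spread between these samples.

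Fibro-adipogenic progenitors are mesenchymal cells that lie between the muscle fibres. They carry the receptor PDGFRα together with SCA-1 (from Ly6a) and CD34, make much of the collagen and decorin around the fibres, and after injury can turn into fibroblasts or fat cells. Matricellular proteins are secreted into the matrix, where they act on integrins, syndecans and growth factors more than they bear load, and many are low in resting adult muscle and high in tissue under repair. These samples are whole muscles, so more cells of a type and more RNA per cell cannot be told apart.

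Values are in FPKM, which scales the fragments of a gene to its exon length and to the depth of its library, so levels may be compared between genes. Recovered totals lay between 14199902 and 17561584 fragments per sample, and the lowest count behind any value of the 10 genes was 104 fragments. A difference is given as the difference in mean log2(FPKM + 1) with its standard error (SE), tested by limma over all 32 samples with Benjamini-Hochberg adjustment over all genes tested. A gene was called where the adjusted p was under 0.05 and the difference at least 1.5-fold on that scale. Differences on this scale understate the change of low genes. Mitochondrial genes took 14.5% to 18.2% of the fragments at day 0 and 6.70% to 17.1% later. Over the 11943 genes whose mean FPKM reached 1, the median difference from day 0 lay between 0.12 and 0.32 on the log2 scale, and after median-ratio scaling between -0.02 and 0.03. The share of higher genes among those called against day 0 was 68.7% to 79.5% as deposited and 44.8% to 49.6% after that scaling.

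Several samples stood apart. Replicate 1 of day 3 correlated at 0.972 with the mean of the other samples of its day over the 11943 genes, against 0.987 to 0.992 for the other 3 samples of that day, and was the lowest of its day in all 10 genes. At day 7, replicate 4 was the highest of its day in Pdgfra, Cd34, Dcn, Tnc, Postn, Fn1, Spp1, Thbs4 and Sparc and was most like day 5, and replicate 1 of day 14 was most like day 21. Leaving out replicate 1 of day 14 changed none of the calls of the 10 genes. Calls that changed without either of the other samples are given beside the results. The labels name gastrocnemius as the tissue and retinas in the extraction text. The 7 myofibre markers summed to 22746 to 45125 FPKM per sample, and the 6 retina genes matched to at most 0.53 FPKM.

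Of the 10 genes, 7 had an entry among the RefSeq promoters of GRCm38.p6. The 250 bases before the start site of the 4 genes with the largest and longest differences are shown here, written 5′ to 3′ on the strand of the gene. They lie at chr4:64047016-64047265 for Tnc (minus strand), chr3:54360857-54361106 for Postn (plus), chr5:104434861-104435110 for Spp1 (plus) and chr13:92794819-92795068 for Thbs4 (minus). Capitals mark matches, on either strand, to TATAAA, to the AP-1 motif TGANTCA, to the TEAD motif GGAATG, to the RUNX motif TGTGGT and to CCAAT.
Tnc: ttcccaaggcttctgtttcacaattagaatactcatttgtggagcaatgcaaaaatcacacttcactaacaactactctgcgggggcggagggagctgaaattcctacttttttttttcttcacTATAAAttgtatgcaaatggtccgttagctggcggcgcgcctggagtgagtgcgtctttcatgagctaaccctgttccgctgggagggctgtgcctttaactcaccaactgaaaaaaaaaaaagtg
Postn: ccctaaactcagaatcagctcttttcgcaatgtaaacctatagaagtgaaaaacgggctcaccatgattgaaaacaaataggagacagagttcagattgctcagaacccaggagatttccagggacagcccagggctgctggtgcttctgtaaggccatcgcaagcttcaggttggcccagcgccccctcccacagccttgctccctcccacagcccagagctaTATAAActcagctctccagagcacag
Spp1: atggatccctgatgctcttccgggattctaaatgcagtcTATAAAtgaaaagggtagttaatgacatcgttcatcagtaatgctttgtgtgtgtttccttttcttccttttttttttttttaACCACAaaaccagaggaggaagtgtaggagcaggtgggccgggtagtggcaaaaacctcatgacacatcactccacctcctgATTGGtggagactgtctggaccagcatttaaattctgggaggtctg
Thbs4: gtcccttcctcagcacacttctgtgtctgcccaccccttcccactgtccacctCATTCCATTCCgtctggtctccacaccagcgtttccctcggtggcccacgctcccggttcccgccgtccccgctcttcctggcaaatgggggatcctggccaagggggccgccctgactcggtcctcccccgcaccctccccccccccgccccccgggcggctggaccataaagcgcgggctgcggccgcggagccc

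Counted from the start site, TATAAA began at -26 in Postn, -126 in Tnc and -211 in Spp1. In Spp1 the RUNX letters lay on the minus strand at -128 and CCAAT on the minus strand at -46, while Thbs4 held 2 minus-strand GGAATG matches at -197 and -192 that share 1 base. Of 32851 promoter windows of this length, TATAAA was found in 12.4%, TGANTCA in 6.75%, GGAATG in 12.6%, TGTGGT in 14% and CCAAT in 33.8%. The windows of Pdgfra, Cd34 and Sparc held none of the 5 motifs, and that of Sparc began at a start site 3103 bases from the gene start in GENCODE. GC content was 70.8% in the Thbs4 window, against 43.6% in Spp1, 44.8% in Tnc and 52.0% in Postn. A match is a run of letters and not a measured binding site.

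**Figure D1:**
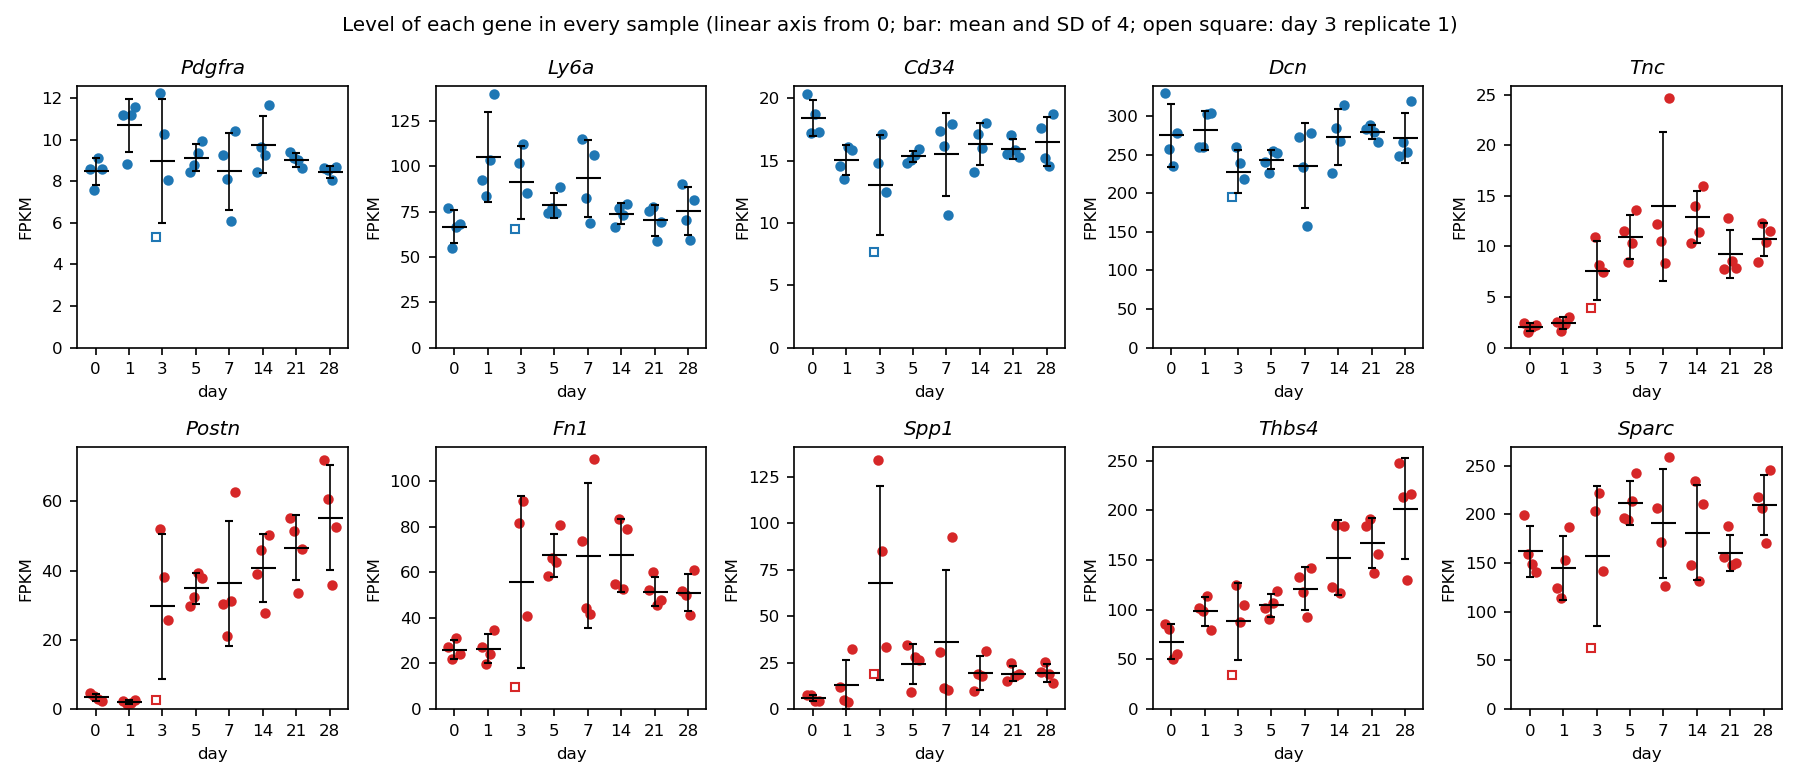
FPKM of the 10 genes (linear axes from 0) by day, 1 point per sample with the mean and SD of 4, markers of fibro-adipogenic progenitors in blue and matrix genes in red. Tnc, Postn, Fn1 and Spp1 left the day 0 range from day 3 or 5 on and Thbs4 climbed to 202 at day 28, while Pdgfra and Dcn overlapped day 0 at every day; the open square is replicate 1 of day 3.

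Over the whole course, 6 of the 10 genes differed between days by limma's F-test at an adjusted p under 0.05, against 63.2% of all genes tested. They were Tnc (adjusted p = 1.33e-09), Postn (3.79e-09), Thbs4 (9.44e-05), Spp1 (0.00557), Fn1 (0.0113) and Ly6a (0.0182). Pdgfra (0.464), Sparc (0.314), Dcn (0.170) and Cd34 (0.153) did not pass the test. Among the matrix genes Sparc alone was outside the test, and among the progenitor markers Ly6a alone was inside it.

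Against day 0, 1 of the 10 genes was called at day 1 (8.84% of all genes tested were called), 3 at day 3 (19.3%), 4 at day 5 (18.8%), 5 at day 7 (19.5%), 5 at day 14 (18.5%), 4 at day 21 (15.7%) and 4 at day 28 (18.3%). Every one of these calls was higher than day 0. Called higher among all genes were 6.34%, 13.2%, 14.9%, 15.4%, 14.6%, 11.8% and 14.2% at the same days. The call at day 1 was Ly6a and those from day 3 on were all matrix genes. Postn, Spp1 and Tnc were called at day 3, Fn1 joined them at day 5 and Thbs4 at day 7. At day 14 the 5 were the same as at day 7, and at days 21 and 28 Fn1 was not called. Without replicate 1 of day 3, 5 genes were called at day 3, with Fn1 and Thbs4 added, beside 21% of all genes in that fit. Without replicate 4 of day 7, 3 were called at day 7, with Fn1 and Spp1 lost, and no share over all genes was worked out there.

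Pdgfra encodes the PDGF receptor that marks these progenitors. At day 0 its level was 8.60, 7.59, 9.12 and 8.59 FPKM, and at day 28 it was 8.63, 8.51, 8.04 and 8.67 FPKM. Day 1 had 11.2, 8.80, 11.2 and 11.6 FPKM, with 3 samples above the day 0 range and 1 inside it. Day 3 had 5.31, 12.2, 10.3 and 8.05 FPKM, and day 7 had 9.26, 8.11, 6.07 and 10.4 FPKM, the widest spreads of the course, with CVs of 33.2% and 21.9% against 3.41% at day 28. The day means ran from 8.46 at day 28 to 10.7 at day 1, and every day overlapped day 0. Without replicate 4 day 7 had the lowest mean, 7.81 FPKM. The differences from day 0 lay between -0.02 and 0.30 on the log2 scale, each with an SE of 0.15. At day 28 the difference was 0.00, with a 95% interval from -0.30 to 0.31, and the adjusted p nearest the threshold was 0.143, at day 1. After median-ratio scaling Pdgfra was lower than day 0 at day 7 (-0.36, adjusted p = 0.00611) and day 28 (-0.34, 0.00951), and quantile normalization passed at both days as well (0.0177 and 0.0364), all under 1.5-fold.

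Ly6a encodes SCA-1, a surface protein of progenitors and of endothelial cells, and belongs to a family of close relatives whose reads the counting could have split. Its levels at day 0 were 76.9, 54.7, 66.6 and 68.1 FPKM, and at day 1 they were 92.5, 83.8, 103 and 140 FPKM. All 4 samples of day 1 lay above all of day 0. Day 3 had 65.6, 102, 112 and 85.2 FPKM and day 7 had 115, 82.7, 68.9 and 106 FPKM, each with 1 sample inside the day 0 range. The difference was 0.63 (SE 0.17, adjusted p = 0.00407 by limma), and it was 0.46 at day 7 (adjusted p = 0.0236) and 0.43 at day 3 (0.0385), both under 1.5-fold. Without replicate 3 of day 7 it was called higher at day 7 (0.60, adjusted p = 0.00464). From day 14 on the day means lay between 70.1 and 75.4 FPKM, against 66.6 at day 0, and no test passed. The call at day 1 was lost without replicate 4 of day 1 (0.49, adjusted p = 0.0317), without replicate 2 of day 0 (0.54, 0.0232), both then under 1.5-fold, and under median-ratio scaling (0.45, 0.0062). The 7 endothelial markers summed to 103 to 120 FPKM at day 0 and 109 to 136 at day 1, and their part in the result was not tested.

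Cd34 encodes a sialomucin of progenitors and of small vessels. Its levels were 20.4, 17.2, 18.8 and 17.3 FPKM at day 0 and 7.70, 14.8, 17.2 and 12.5 FPKM at day 3. All 4 day 3 samples were below the day 0 range. At day 1 they had 14.6, 13.6, 16.1 and 15.9 FPKM and at day 5 they had 14.9, 15.1, 15.5 and 15.9 FPKM, again below day 0 without exception, although neither day passed the limma test (-0.28, adjusted p = 0.189, and -0.25, 0.194). The difference at day 3 was -0.52 (SE 0.15, adjusted p = 0.00574), under 1.5-fold, and it was -0.30 (adjusted p = 0.0445) without replicate 1 of that day. Without replicate 2 (-0.59, adjusted p = 0.00371) or replicate 3 (-0.66, 0.000623) of day 3 Cd34 was called lower. Day 0 had the highest mean of the 8 days, 18.4 ± 1.47 FPKM (SD, n = 4), and later means ran from 13.0 to 16.5. Under median-ratio scaling Cd34 was called lower at day 3 (-0.74), day 5 (-0.62) and day 7 (-0.62), and passed the test under 1.5-fold at the other days. The endothelial markers summed to 63.9 to 89.0 FPKM at day 3, below the day 0 range, and 3 of the 7 (Kdr, Tek and Cdh5) were called lower at day 3, of which Kdr alone was called without replicate 1 of day 3. With median-ratio scaling all 7 were called lower on at least 1 day. Their part in the values of Cd34 was not tested.

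Dcn encodes decorin, a small proteoglycan that binds collagen fibrils and TGF-β. It had the highest level of the 10 genes at every day, with means between 228 and 282 FPKM. At day 0 the samples had 330, 257, 235 and 278 FPKM, and at day 28 they had 248, 267, 254 and 319 FPKM. Day 3 had 195, 260, 239 and 218 FPKM and day 7 had 272, 234, 158 and 278 FPKM, both overlapping day 0. Without replicate 4 the mean of day 7 was 221 FPKM, the lowest of the days. Differences from day 0 ran from -0.27 to 0.04, and the adjusted p nearest the threshold was 0.114, at day 3. After median-ratio scaling Dcn was called lower at day 7 (-0.62), and was lower by the test but under 1.5-fold at days 3, 5, 14, 21 and 28.

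**Figure D2:**
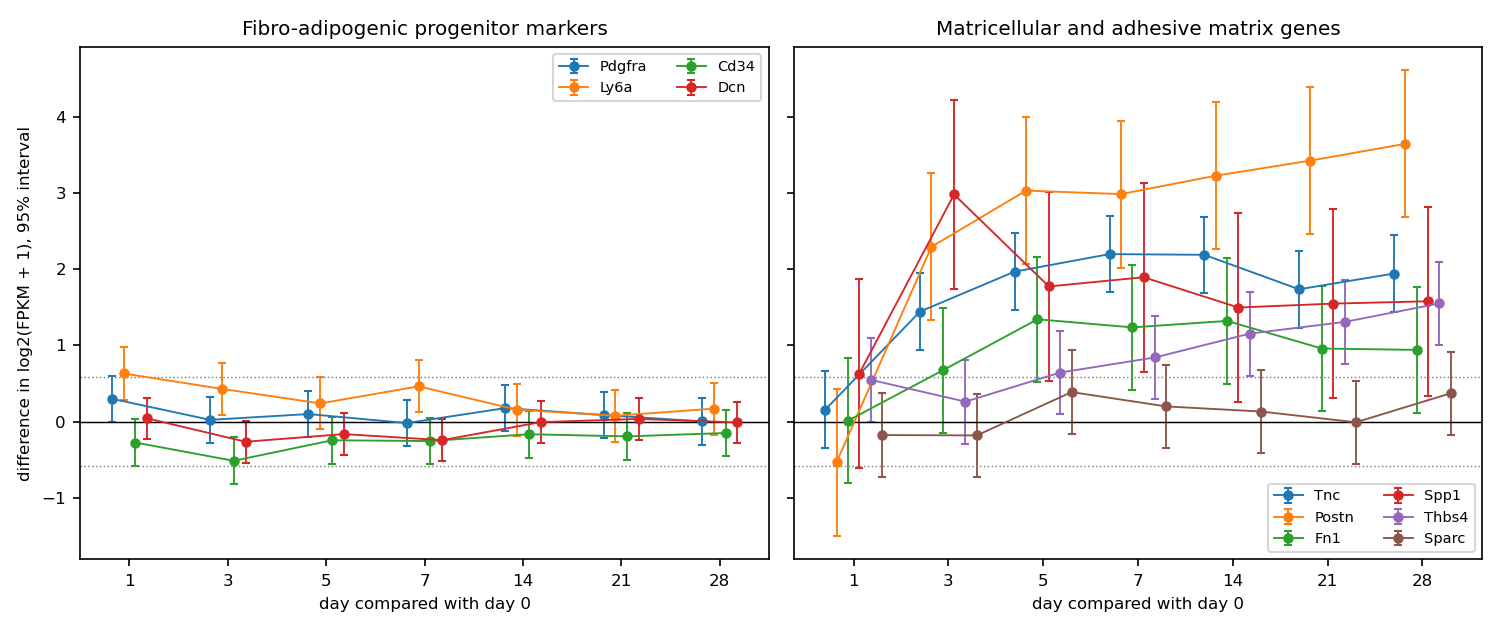
Difference from day 0 in mean log2(FPKM + 1) with its 95% interval, by day (days evenly spaced), for the 4 progenitor markers (left) and the 6 matrix genes (right), with dotted lines at 1.5-fold. The markers stayed between -0.52 and 0.63, while Postn reached 3.65 at day 28, Spp1 2.98 at day 3, Tnc 2.20 at day 7 and Thbs4 1.55 at day 28.

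Tnc encodes tenascin-C, a hexameric matrix protein of developing and injured tissue that loosens cell adhesion. Its levels were 2.41, 1.5, 1.99 and 2.24 FPKM at day 0 and 2.53, 1.63, 2.36 and 3.06 FPKM at day 1. At day 3 they were 3.91, 10.9, 8.17 and 7.44 FPKM, all above the 8 samples of days 0 and 1. At day 5 they were 11.5, 8.42, 10.3 and 13.6 FPKM, and at day 7 they were 12.3, 10.5, 8.36 and 24.7 FPKM, the last the highest of all 32 samples. Days 14 (10.3, 14.01, 11.4 and 16), 21 (7.73, 12.8, 8.56 and 7.87) and 28 (8.49, 12.3, 10.5 and 11.5) stayed well above day 0 with no overlap. Ordered by mean, days 7, 14, 5, 28, 21 and 3 came before days 1 and 0. Without replicate 4 the mean of day 7 was 10.4 FPKM, below days 14, 5 and 28. The mean was 6.86 times that of day 0 at day 7 and 5.25 times at day 28. The difference was 1.44 at day 3 (SE 0.25, adjusted p = 1.51e-05), 2.20 at day 7 (1.48e-08) and 1.94 at day 28 (1.43e-07), and every day from day 3 on was called. No 2 days from day 5 to day 28 among those compared differed by the test.

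Postn encodes periostin, a matricellular protein of collagen-rich tissue and of activated fibroblasts. At day 0 its levels were 4.59, 3.90, 2.96 and 2.31 FPKM, and at day 1 they were 2.26, 1.55, 1.63 and 2.74 FPKM. At day 3 the samples had 2.74, 51.9, 38.2 and 25.8 FPKM, so that replicate 1 stayed in the day 0 range and the other 3 lay far above it. Day 5 had 29.8, 32.4, 39.4 and 38 FPKM, day 7 had 30.3, 21.1, 31.3 and 62.6 FPKM and day 14 had 39.1, 45.9, 27.8 and 50.3 FPKM. Day 21 had 55.1, 51.5, 33.7 and 46.2 FPKM and day 28 had 72.0, 60.6, 35.9 and 52.5 FPKM. From day 5 on every sample thus lay above day 0, and no neighbouring pair of days from day 3 on passed the test. With all samples the means were in the order of the days from day 3 to day 28. Without replicate 1 the mean of day 3 was 38.6 FPKM, above days 5 and 7, and without replicate 4 the mean of day 7 was 27.6 FPKM, below days 3 and 5. The difference was -0.54 at day 1 (adjusted p = 0.467), 2.29 at day 3 (SE 0.47, adjusted p = 0.000184) and 3.65 at day 28 (2.11e-07). Without replicate 1 the difference at day 3 was 3.13 (SE 0.28, adjusted p = 3.76e-10). Day 28 had the highest mean, 55.3 ± 15.2 FPKM (SD, n = 4), 16.1 times the mean of day 0. Days 28 and 7 did not differ by the test (0.66, 95% interval -0.31 to 1.63).

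Fn1 encodes fibronectin, an adhesive glycoprotein bound by integrins and needed to assemble other matrix proteins. Its levels were 27.1, 21.8, 31.2 and 24 FPKM at day 0, and 58.3, 66.4, 64.7 and 80.7 FPKM at day 5. Day 1 had 27.3, 19.8, 24.3 and 34.8 FPKM, overlapping day 0. Day 14 had 54.7, 83.3, 52.7 and 79.1 FPKM, day 21 had 52.1, 60.1, 45.6 and 47.9 FPKM and day 28 had 51.6, 49.9, 41.3 and 61.0 FPKM. All samples from day 5 on lay above day 0. The difference was 1.34 at day 5 (SE 0.40, adjusted p = 0.00681), 1.24 at day 7 (0.012) and 1.32 at day 14 (0.00758). It was 0.96 at day 21 (0.0561) and 0.94 at day 28 (0.0548), past the fold but not the test. Day 3 spread from 9.47 to 91.1 FPKM, and its difference of 0.67 (adjusted p = 0.192) became 1.35 (0.000127) without replicate 1. In that same fit days 21 and 28 passed too, at adjusted p of 0.00228 and 0.00236. At day 7 the values were 73.9, 44.2, 41.6 and 110 FPKM, and without replicate 4 the difference was 0.97 (adjusted p = 0.0644). Days 21 and 28 passed in that fit, at 0.0478 and 0.0468. The call at day 7 was also lost under quantile normalization (0.92, adjusted p = 0.0564).

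Spp1 encodes osteopontin, a secreted phosphoprotein that binds integrins and CD44 and is made in quantity by macrophages as well as by matrix cells. At day 0 its levels were 7.32, 7.36, 4.41 and 4.47 FPKM, and at day 1 they were 11.8, 4.65, 3.92 and 32.2 FPKM. At day 3 they were 19.1, 134, 85.0 and 33.6 FPKM, all above day 0, and the mean of 67.9 was 11.5 times that of day 0. At day 5 the samples had 34.3, 9.14, 28 and 26.2 FPKM and at day 7 they had 30.8, 11.1, 10.01 and 92.4 FPKM. The standard error of its differences, 0.61, was the highest of the 10 genes. Day 14 had 9.81, 19.0, 17.7 and 31.5 FPKM, day 21 had 14.9, 24.7, 17.6 and 18.9 FPKM and day 28 had 20.2, 25.6, 18.8 and 13.8 FPKM. Ordered by mean, day 3 came first and day 7 second, and days 5, 28, 14 and 21 lay between 19.0 and 24.4 FPKM. Without replicate 4 the mean of day 7 was 17.3 FPKM in place of 36.1, below those 4 days. The difference was 2.98 at day 3 (SE 0.61, adjusted p = 0.000164), 1.77 at day 5 (0.0175) and 1.90 at day 7 (0.011). It was 1.5 at day 14 (0.0435), 1.55 at day 21 (0.041) and 1.58 at day 28 (0.033). Under quantile normalization the calls at days 5, 14, 21 and 28 were lost, at adjusted p of 0.0552, 0.121, 0.0865 and 0.0826. The call at day 7 was lost without replicate 4 (1.26, adjusted p = 0.083), and that at day 5 without replicate 1 of day 5 (1.57, adjusted p = 0.056). The calls at days 14 and 21 were lost without any 1 sample of day 0 or replicate 2, 3 or 4 of the day itself, at adjusted p of 0.0529 to 0.131 and 0.0504 to 0.0954. The call at day 28 was lost without replicate 3 or 4 of day 0 or replicate 1, 2 or 3 of day 28, at 0.0531 to 0.08.

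The 10 macrophage markers were all called higher on at least 1 day, beside 25.7% of all genes tested. At day 7 their median difference was 1.63, against 0.13 over all genes tested and 0.32 over those whose mean FPKM reached 1. Summed per sample they had 173 to 252 FPKM at day 0, 277 to 415 at day 1, 330 to 1166 at day 3 and 487 to 1422 at day 7. At day 3 replicate 1 was the lowest both in this sum and in Spp1, and replicate 2 the highest in both. At day 7 replicate 4 was the highest in both, and replicate 3 the lowest in both. At day 1 replicate 4, with 32.2 FPKM of Spp1, also had the highest sum, 415 FPKM, and at day 14 the order of the 4 samples was the same in both. At day 21 replicate 2 was the highest in both. At days 0, 5 and 28 the sample with the lowest sum had the highest Spp1, but the full order of the 4 samples was not reversed. At day 0 replicate 2 had the lowest sum, 173 FPKM, and Spp1 at 7.36 FPKM. Replicate 1 of that day had the highest sum, 252 FPKM, and Spp1 at 7.32 FPKM. At day 5 replicate 1 had the lowest sum, 706 FPKM, and the highest Spp1. At day 28 replicate 2 had the lowest sum, 568 FPKM, and the highest Spp1, while replicate 1 had the highest sum, 663 FPKM, and the next highest Spp1. None of the 10 markers was at 0 as a day mean, and Lyz2, which encodes lysozyme, had the highest level, with a mean of 118 FPKM at day 0 and 500 FPKM at day 7. The part of these cells in the levels of Spp1, Tnc, Postn and Fn1 was not tested.

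**Figure D3:**
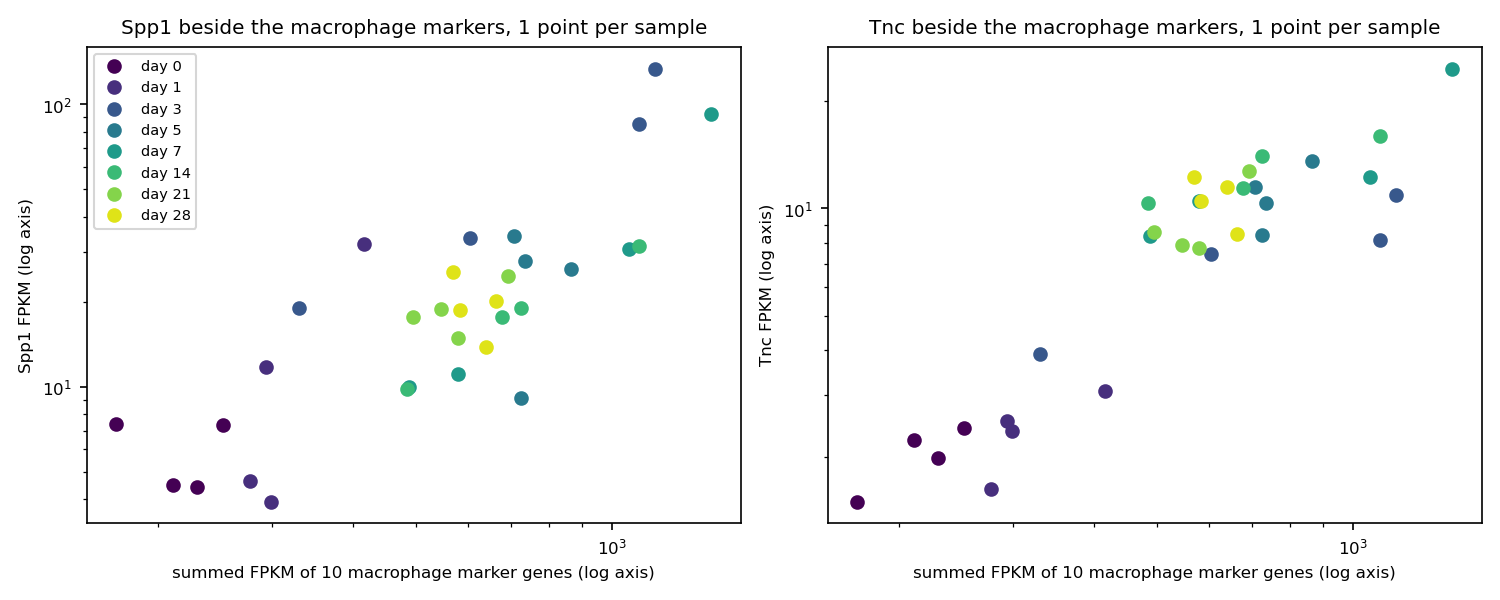
FPKM of Spp1 (left) and Tnc (right) against the summed FPKM of 10 macrophage markers, 1 point per sample, coloured by day, both axes logarithmic. The 4 samples of day 0 lie at the lower left, at sums of 173 to 252, and the samples with the most Spp1, of days 3 and 7, lie at sums of 1102 to 1422.

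Thbs4 encodes thrombospondin-4, a pentameric protein of tendon, muscle attachments and muscle matrix. Its levels were 85.6, 80.2, 50.5 and 55.7 FPKM at day 0, and 248, 214, 130 and 216 FPKM at day 28. Day 1 had 101, 98.5, 114 and 79.2 FPKM, overlapping day 0, and day 3 had 34.6, 125, 87.8 and 105 FPKM, with replicate 1 below and the others above it. Day 7 had 133, 118, 92.5 and 142 FPKM, day 14 had 123, 186, 117 and 184 FPKM and day 21 had 185, 191, 137 and 156 FPKM. The means from day 3 to day 28 were in the order of the days, 88.2, 105, 121, 152, 167 and 202 FPKM, with no neighbouring pair past the test. Without replicate 1 the mean of day 3 was 106 FPKM, so that the order held from day 5 only. In the fit without that sample day 5 was called as well (0.64, adjusted p = 0.00822). All samples from day 5 on lay above day 0. The difference was 0.84 at day 7 (SE 0.27, adjusted p = 0.0107), 1.15 at day 14 (0.000714), 1.31 at day 21 (0.000206) and 1.55 at day 28 (1.98e-05). The call at day 7 was lost under median-ratio scaling (0.47, adjusted p = 0.124) and quantile normalization (0.61, 0.063). Day 28 was 0.71 above day 7, which did not pass the test (adjusted p = 0.0847) with all samples and passed without replicate 1 of day 3 (adjusted p = 0.0135). The 3 tendon markers summed to 29.3 to 59.2 FPKM at day 0 and 78.7 to 92.6 FPKM at day 28. Scx, a transcription factor of tendon cells, was at 4.21 FPKM at day 0 and 34.5 at day 28, and Tnmd, a tendon membrane protein, was at 36.2 and 47.0. At day 1 all 3 markers lay below their day 0 means, with Scx at 3.48 FPKM and Tnmd at 15.9. From day 3 to day 21 the markers lay on different sides of those means. Scx was at 57.6 FPKM at both day 7 and day 14, where Tnmd was at 15.8 and 22.3, below its day 0 level, and Mkx, another transcription factor of tendon cells, at 0.586 and 0.676 against 1.01 at day 0. Their part in the level of Thbs4 was not tested.

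Sparc encodes osteonectin, a collagen-binding matricellular protein. It had levels of 200, 159, 149 and 141 FPKM at day 0 and of 218, 206, 171 and 246 FPKM at day 28. Day 3 had 62.4, 204, 222 and 142 FPKM and day 7 had 206, 171, 127 and 259 FPKM, each with samples on both sides of the day 0 range. Day 5 had 196, 194, 213 and 243 FPKM. Every day overlapped day 0, with means from 145 FPKM at day 1 to 211 FPKM at day 5. The differences ran from -0.18 to 0.39 (SE 0.27), and the adjusted p nearest the threshold was 0.256, at day 5. At day 0 its mean of 162 FPKM was the second highest of the 10, after Dcn, and no day passed the test.

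Neighbouring days were compared to see when the levels changed, first day 3 against day 1. Tnc was higher by 1.29 (adjusted p = 0.00012), Postn by 2.83 (2.07e-05) and Spp1 by 2.35 (0.0031), so that 3 of the 10 genes were called, beside 10.6% of all genes. Without replicate 1 of day 3, Fn1 was called as well (1.34, adjusted p = 0.000239), beside 12.2% of all genes in that fit. None of the 10 was called in the later steps by limma, at day 5 against day 3 (5.76% of all genes called), day 7 against 5 (0.657%), day 14 against 7 (0.634%), day 21 against 14 (0.453%) and day 28 against 21 (0.199%), nor at day 28 against 7 (2.96%). At an unadjusted p under 0.05, 2 genes passed at day 5 against day 3 (Tnc and Sparc), 1 at day 28 against 7 (Thbs4) and 0 in the other 4, and limma-voom on recovered fragments called 0 in all 6.

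In exact permutation tests, two-sided, 4 samples against 4 cannot go below p = 0.0286. That smallest p was reached at day 1 by Ly6a (higher) and Cd34 (lower), and at day 3 by Tnc, Spp1 and Cd34. Adjusted over the 70 exact permutation tests of 10 genes and 7 days, the smallest value was 0.0625. Tnc, Postn, Fn1, Spp1 and Thbs4 reached it at each of days 5, 7, 14, 21 and 28, with no overlap between the groups, as did Cd34 (lower) at days 5 and 21. Of all genes tested, the groups did not overlap in 28.5% at day 1, 35.3% at day 3, 44.8% at day 5, 40.9% at day 7, 44.9% at day 14, 42.9% at day 21 and 45.7% at day 28.

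Each matrix gene was also divided by Pdgfra of the same sample, a ratio chosen after the values had been seen. For Tnc the ratio was 0.239 ± 0.038 at day 0 and 0.222 ± 0.033 at day 1 (SD, n = 4). At day 3 it was 0.838 ± 0.087, with the lowest sample at 0.736 and the highest at 0.924, so that replicate 1 of that day, at 0.736, lay close to the others on this scale. It was 1.59 ± 0.519 at day 7 and 1.26 ± 0.197 at day 28. For Postn the ratio was 0.411 at day 0, 0.190 at day 1 and 6.50 at day 28, and for Thbs4 it was 8.14 at day 0 and 23.7 at day 28. Of 42 ratios compared with day 0, 28 reached the smallest exact permutation p of 0.0286 (0.0429 after Benjamini-Hochberg adjustment over the 42), at 6 days each for Tnc, Postn and Spp1, 5 for Fn1, 4 for Thbs4 and 1 for Sparc. Day 1 was below day 0 for Postn (log2 ratio -1.07) and Sparc (-0.51), and the other 26 were above it. Ratios to Pdgfra were not taken for other genes, so the 28 of 42 have no share over all genes beside them. With no ratio taken, the groups did not overlap day 0 in 28.5% to 45.7% of all genes tested, by day. At day 3 the Postn ratio ran from 0.516 to 4.24 (exact permutation p = 0.0571).

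**Figure D4:**
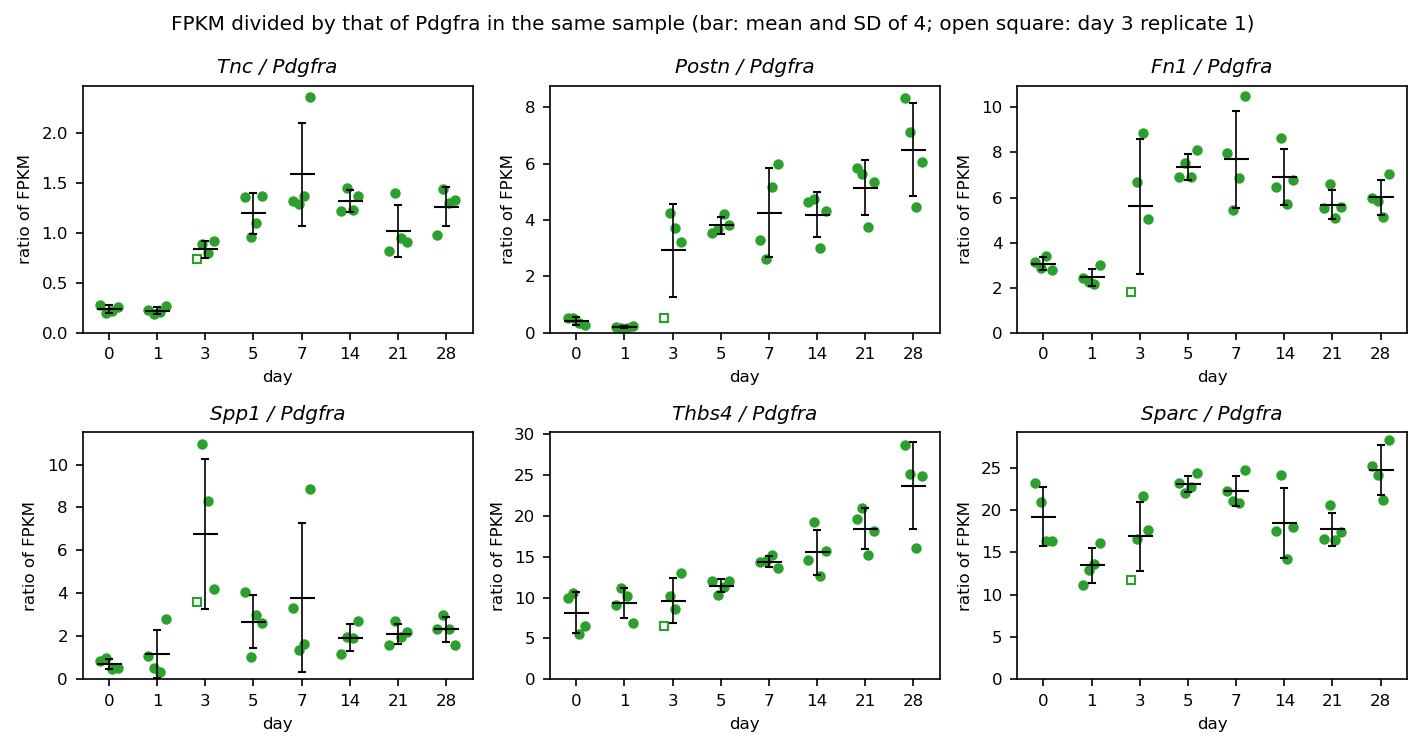
FPKM of each of the 6 matrix genes divided by that of Pdgfra in the same sample, by day (linear axes from 0, days evenly spaced), 1 point per sample with the mean and SD of 4; the open square is replicate 1 of day 3. The Tnc ratio stayed under 0.281 at days 0 and 1 and at 0.736 or more from day 3 on, while the Sparc ratio overlapped day 0 at all later days but day 1.

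The 10 genes also moved together within days, as a description of samples that share a library scaling. With the day means taken out, Pearson's r over the 32 samples was positive in every pair, from 0.41 for Dcn and Postn to 0.93 for Fn1 and Sparc. Without replicate 1 of day 3 it ran from 0.28 for Spp1 and Thbs4 to 0.86 for Fn1 and Sparc. Pdgfra, whose day means hardly moved, had an r of 0.90 with Fn1 and of 0.81 with Tnc within days, and of 0.83 and 0.75 without that sample. Without that sample its r was lower with Postn (0.55) and with Thbs4 (0.39).

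Among 7407 other genes with a day mean of at least 5 FPKM, those whose 8 day means of log2(FPKM + 1) followed each gene most closely were sought. For Tnc they were Akt2 (r = 0.997), Eif3i and Spg21, for Postn Rpl39 (0.996), Uxs1 and Zmpste24, and for Thbs4 Morc3 (0.985), Dstyk and Smc1a. For Fn1 they were Kctd7 (0.993), Gm26782 and the pseudogene Akt2-ps, and for Spp1 Ruvbl1 (0.992), Gm2223 and Cmpk1. For Ly6a they included Mex3c (0.974) and the chemokine gene Ccl2, and for Cd34 Abcd2 (0.991), Fopnl and Igfbp6, the last of these itself a fibroblast gene. Dcn was closest to Hbb-bt (0.977), Crispld2 and Hba-a1, Pdgfra to Ablim3 (0.910), Gm10557 and Gm13091, and Sparc to Nab1 (0.949), Dhdh and Fam114a1. These are correlations over 8 points that share the same samples and scaling, and reads of Akt2-ps cannot be told apart with certainty from those of Akt2.

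Of 20 other genes of progenitors and fibroblasts, 5 were called higher and 5 lower on at least 1 day, beside 25.7% and 8.19% of all genes tested. Apod, a lipid-binding apolipoprotein, was at 56.0 FPKM at day 0 and 464 at day 14 (2.97, adjusted p = 2.41e-07). The chemokine gene Cxcl14 was at 57.0 at day 0 and 233 at day 3 (2.01, 1.19e-12), and Lum, the proteoglycan lumican, at 46.6 and 124 at day 14 (1.39, 5.95e-05). Clec3b, which encodes tetranectin, fell from 86.8 FPKM to 37.0 at day 3 (-1.27, 4.46e-06), and the others called lower were Col15a1, Gsn, Igfbp6 and Thy1. The list's median difference was -0.20 at day 3 and 0.03 at day 28, against 0.06 and 0.14 over all genes and 0.20 and 0.30 over those whose mean FPKM reached 1. With median-ratio scaling 4 were called higher and 10 lower, and without replicate 1 of day 3 the counts were 6 and 5. The share of all genes called on at least 1 day was not worked out in either fit, for this or any other list. Of the genes called against day 0 with median-ratio scaling, 44.8% to 49.6% were higher, against 68.7% to 79.5% as deposited.

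Of 20 other matricellular genes, 10 were called higher and 4 lower on at least 1 day, beside 25.7% and 8.19% of all genes tested. Ccn1, an integrin ligand of early tissue repair, was at 13.4 FPKM at day 0 and 88.7 at day 3 (2.54, adjusted p = 1.02e-11), and Ccn2, a growth factor of matrix cells, at 5.02 and 22.8 (1.83, 4.59e-06). Thbs1, which activates TGF-β, had its largest difference at day 1, at 21.8 against 5.89 FPKM (1.64, 7.24e-05). Ccn3 fell at day 1 from 8.96 to 2.98 FPKM (-1.37, 0.000144). The list's median was 0.32 at day 7, against 0.13 over all genes and the same 0.32 over genes whose mean FPKM reached 1. With median-ratio scaling 6 were called higher and 5 lower, and without replicate 1 of day 3 the counts were 11 and 3.

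Of 8 further small leucine-rich proteoglycans, the family of Dcn, 3 were called higher and 5 lower on at least 1 day, with Aspn in both counts. The shares of all genes tested, for this list and the tendon genes below, were 25.7% higher and 8.19% lower. Bgn, the biglycan gene, was at 18.1 FPKM at day 0 and 74.6 at day 5 (1.98, adjusted p = 1.95e-07). Kera (-2.39), Fmod (-1.72) and Omd (-1.21) were lowest against day 0 at day 3, and the list's median then was -0.72. With median-ratio scaling the counts were 2 and 5, with Aspn lower only. Of 6 tendon genes, Kera among them, Scx was called higher (3.49 at day 14) and 4 were called lower, with Tnmd at -3.06 and Chad at -2.72 at day 3. With median-ratio scaling Mkx was called lower too, and without replicate 1 of day 3 Egr1 was in both counts.

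Of 12 receptors of matricellular proteins, 7 were called higher and 1 lower, with Cd36, a receptor of thrombospondins, in both counts. Beside both lists of this paragraph, 25.7% of all genes tested were called higher and 8.19% lower on at least 1 day. Sdc4, a syndecan, had a difference of 1.63 at day 3 (adjusted p = 1e-09), the fibronectin receptor subunit Itga5 of 1.33 (1.89e-08) and Cd44, a receptor of osteopontin, of 1.20 (0.000592). Itga9, a subunit that binds tenascin-C and osteopontin, reached 1.18 at day 28 (1.29e-09). The list's median was 0.65 at day 7, against 0.13 over all genes and 0.32 over genes whose mean FPKM reached 1. With median-ratio scaling 6 were called higher and 1 lower, Cd36 being lower only. Of the 4 PDGF ligand genes Pdgfa alone was called, at 7.57 FPKM at day 3 against 4.67 at day 0 (0.59, 8.34e-07), and it was not called with median-ratio scaling, where Pdgfb and Pdgfd were called lower, or without replicate 1 of day 3, where Pdgfc was called higher and Pdgfb lower.

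Of 8 genes of fibroblast activation, 4 were called higher and 1, Acta2, lower on at least 1 day, beside 25.7% and 8.19% of all genes tested. The calls were the same with median-ratio scaling and without replicate 1 of day 3. Fap, Lrrc15 and Tagln were not called, and Tagln was at 0.126 to 0.173 FPKM as a day mean. Runx1, a transcription factor, was at 0.394 FPKM at day 0 and 24 at day 28 (4.15, adjusted p = 1.60e-19), and Timp1, a protease inhibitor, at 1.19 and 35.7 at day 3 (3.96, 2.27e-10). Cthrc1 (1.91 at day 5) and Adam12 (0.85 at day 3) were the others called higher. Which cells held the RNA of these genes was not tested.

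Markers of other cells were counted in the same way. Of all genes tested, 25.7% were called higher and 8.19% lower on at least 1 day. Called higher and lower on at least 1 day were 3 and 0 of 3 neutrophil genes tested, 2 and 0 of 5 satellite cell genes, 2 and 2 of 5 Schwann cell genes, 1 and 2 of 5 of pericytes and smooth muscle, 0 and 1 of 4 of adipocytes, 0 and 6 of 7 of myofibres and 0 and 0 of 3 of red blood cells. With median-ratio scaling they were 0 and 3 for pericytes and smooth muscle, 0 and 2 for adipocytes and 0 and 2 for red blood cells, and without replicate 1 of day 3 they were 0 and 0 for adipocytes. The other counts of this paragraph were the same under both. The difference of the neutrophil gene S100a8 was 4.67 at day 14, while Ly6g, which defines neutrophils, was at most 0.129 FPKM as a day mean. The other neutrophil genes were highest at day 1. S100a9 was at 0.90 FPKM at day 0, 29.1 at day 1 and 1.24 at day 14, and Csf3r at 0.32, 3.69 and 1.23. The part of these other cells in the levels of the 10 genes was not tested.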

How the data were processed

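Total RNA of GAS muscle was sequenced as 150-bp paired-end reads in the study. The authors deposited FPKM values, 1 column per sample, and neither counts nor comparisons were used. The submitters' processing notes name CASAVA, HISAT2 2.1.0, DESeq2 and the build GRCm38, with no role given, and the counter, its annotation and its use of strand are not given in the sources used here. Columns were assigned to days by name, with the C columns as day 0, and their letters were used only to name replicates. Symbols and merged exon lengths came from GENCODE mouse release 21, which matched 33356 of 33397 genes and turned the FPKM values back into fragments, 99.3% to 99.4% of values under 200 fragments being whole within 0.02. Counting error alone would give a CV of 0.608% to 8.43% per gene and day, and exceeded 50% of the measured CV in 3 of 80 such groups (Pdgfra at days 21 and 28, Cd34 at day 5). Exons of Pdgfra, Cd34, Fn1, Spp1 and Tnc share bases with other annotated genes, at most 456 in 1 gene pair.

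A linear model of log2(FPKM + 1), with day as a factor and all 32 samples, was fitted by limma 3.58.1 (R 4.3.3) with a moderated variance that follows the mean. It covered the 22071 genes that reached an FPKM of 0.1 in 4 samples or more, and calls needed an adjusted p under 0.05 and 1.5-fold. The step was tested on simulated data. Exact permutation tests used scipy 1.17.1 under Python 3.11.15, with numpy 2.4.6, pandas 2.3.3 and matplotlib 3.10.9. Promoters are RefSeq's for GRCm38.p6. The genes named are the 10 members, the 3 genes most like each over 8 day means, and up to 4 genes per list with the largest called difference, with further called genes of a list named after their values were seen. Some genes that this rule names are not reported here. The members and lists were chosen with earlier results of these data known. Alternatives changed the pseudocount, the filter, the scaling, the variance model, the unit, the samples in the fit and the thresholds, and left out each sample in turn.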

Additional observations from a re-analysis of the deposited data

Results flagged for a closer look

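In a group of 4 samples, 1 value lay far from the others in 2 of 80 groups of gene and day tested by the gap to the nearest sample, where chance gives about 1 in 20, or 4. Pdgfra in replicate 2 of day 1 was low, at 8.80 FPKM, and Tnc in replicate 2 of day 21 was high, at 12.8 FPKM.

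The effect of denervation differed between days 1 and 3 for 3 genes, by limma's contrast of the 2 days. Day 3 was above day 1 on the log2 scale by 1.29 for Tnc (adjusted p = 0.00012), by 2.83 for Postn (2.07e-05) and by 2.35 for Spp1 (0.0031).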

How the results depend on the processing

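No paired analysis was possible because the letters of the columns match no sample title or number in the labels. Of the counts of called genes, most stayed within 1.5 times under the other settings and none of the called values reversed. With median-ratio scaling the count at day 1 was 0, Ly6a being lost, and at day 28 against day 7 it was 1 (Thbs4). With no fold threshold the count at day 3 was 5, with Ly6a higher and Cd34 lower added. Among the other settings, the share of all genes called was worked out only for the fit without replicate 1 of day 3. Leaving out each sample in turn gave counts against day 0 of 0 to 1 at day 1, 3 to 5 at day 3, 3 to 6 at day 7, and 3 to 5 at days 5, 21 and 28. They were 0 to 1 at day 5 against day 3 and at day 28 against day 7. The count at day 1 was 0 without replicate 2 of day 0 or replicate 4 of day 1. At day 5 against day 3 it was 1 without replicate 2 (Tnc) or replicate 3 (Sparc) of day 3, and at day 28 against day 7 it was 1 (Thbs4) without replicate 1 of day 3 or replicate 3 of day 28. The causes were not tested. Spp1 at days 14, 21 and 28 was the least stable call, lost at adjusted p of 0.0714, 0.068 and 0.0549 with no filter on low values, 0.117, 0.0771 and 0.0849 with median-ratio scaling and 0.093, 0.089 and 0.0734 with limma-voom. Fn1 at days 21 and 28 was gained with limma-voom (0.0499 and 0.0487), with a filter at an FPKM of 1 (0.0399 and 0.04), after rescaling to TPM (0.0317 and 0.0262) and in fits of only the days compared (7.59e-05 and 0.000177). Thbs4 at day 5 was gained with a pseudocount of 0.1 (0.0493), a filter at an FPKM of 1 (0.0361), rescaling to TPM (0.0119), limma-voom (0.0437) and fits of only the days compared (0.00773). Cd34 was also called lower with quantile normalization at days 3 and 7 (3.59e-06 and 0.000148) and without mitochondrial genes at day 3 (0.000672). Ly6a at days 3 and 7 was gained after rescaling to TPM (0.00784 and 0.0032).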
